A study of Mus musculus with 30 samples.

Results

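Genes that drive cell division, copy DNA or mend it were examined in the hippocampus and cerebral cortex of mice lacking cyclooxygenase (COX)-1 or COX-2, the enzymes that turn arachidonic acid into prostanoids. The members were chosen by gene symbol alone: the cyclins from letter A to L, the numbered cyclin-dependent kinases (Cdk), the Cdkn genes, the numbered Cdc genes without Cdc42, the Mcm, Orc and Rfc families, the alpha, delta, epsilon and eta polymerase symbols, the Msh, Rad and Xrcc families, Gmnn and Pcna. This gave 88 genes with 128 probes, of 7151 genes with 9663 probes that carry 1 symbol. By role they were 17 licensing and initiation genes, 12 clamp, clamp loader and polymerase genes, 14 repair genes, 13 Cdk genes, 6 cyclins of the cell cycle, 6 other cyclins, 6 Cdkn genes and 14 Cdc genes. A symbol does not fix a role: Cdc37 is a chaperone partner of kinases, Cdc5l and Cdc40 belong to the splicing machinery, Cdc73 to a transcription elongation complex, and cyclin C (Ccnc) with Cdk8 to the Mediator complex.

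The array hybridisations covered COX-1-/- mice against COX-1+/+ mice, and COX-2-/- and COX-2+/- mice against COX-2+/+ mice, with 3 arrays for each genotype in each region and 30 arrays in all. All mice were 12 weeks old and carried no treatment. The study's methods place both lines on a mixed C57BL6 and 129/Ola background, obtained wild-type and null mice from separate matings of each colony, and state 3 mice per group. They also describe triplicate arrays for each sample, so whether the 3 arrays of a group stand for 3 mice is not settled, and each n, SE and p below measures the spread between arrays. The values are Z scores: the natural log of a spot's intensity minus the mean of its array, divided by the SD of that array, so that 0 is the array mean and differences between groups cannot be read as folds. In 5 of the 6 COX-1 cortex arrays the probes in the first part of the table hold copied values, so results on COX-1 cortex rest on the 56 member genes with a probe in the second part of the table.

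A cell that is about to divide first loads the Mcm helicase onto origins marked by the Orc complex, with the help of Cdc6, a step that geminin (Gmnn) blocks once copying has begun. Cyclins with their Cdk partners fire these origins, Cdkn proteins hold the kinases back, and the clamp Pcna, placed on DNA by the Rfc loader, tethers polymerases delta (Pold genes) and epsilon (Pole genes). Many of these genes are switched on together by E2F factors when the retinoblastoma protein is released. In the adult brain most neurons no longer divide, dividing precursors persist in the dentate gyrus of the hippocampus, and repair genes work in dividing and resting cells alike. In tissue RNA, fewer cells of a type and less RNA per cell cannot be told apart.

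A feature that some members had without having been chosen for it lay in their promoters. RefSeq promoters of build GRCm38.p6, 300 bases each with 250 before the start of the gene and 50 after it, were held for 72 of the 88 genes. An E2F match, which is TTTCCCGC, TTTCGCGC, TTTGCCGC or TTTGGCGC on either strand, lay in 17 of them (23.6%), against 704 of 27025 promoters of all genes (2.60%). By role, 5 of 10 clamp, loader and polymerase genes and 7 of 15 licensing genes had a match, but none of the 4 cell cycle cyclins, 5 other cyclins or 5 Cdkn genes with an entry. The CCAAT box was in 59.7% of member promoters, against 41.1% of all, and the letters TTTGAA of the CHR element in 16.7%, against 20.2%. For promoters, all genes means every gene with an entry, whether on the array or not. A match describes these letters only, and no binding was measured.

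**Figure D1:**
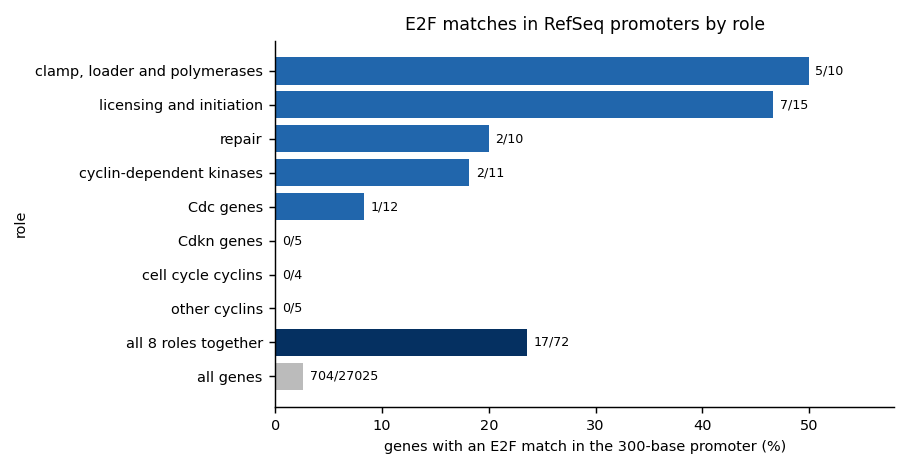
Share of genes (x axis, percent) with an E2F match in the 300-base promoter for each role (y axis), with the number of genes written at each bar. The 2 roles of the replication machinery have a match in 5 of 10 and 7 of 15 genes, and all genes with an entry at 2.60%.

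In all, 19 members met limma's threshold or the study's rule, both described below, in at least 1 comparison. The share of all genes that did so was not counted, so this number only selects promoters to show and is not read as a trait of the members. Of the 18 called members with a promoter entry, 6 had an E2F match: Mcm3, Mcm5, Mcm6, Msh6, Pold1 and Pole2. Their match sites are shown because these genes return in the genotype and region results. Each line gives 30 bases on the strand of the gene, with the letters of the matches in capitals.
Mcm3, chr1:20820265-20820294, minus strand: gGCGGGAAAacttgggaagtTTTGGCGCca
Mcm5, chr8:75109347-75109376, plus strand: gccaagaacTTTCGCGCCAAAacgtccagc
Mcm6, chr1:128359795-128359824, minus strand: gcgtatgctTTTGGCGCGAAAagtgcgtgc
Mcm6, chr1:128359734-128359763, minus strand: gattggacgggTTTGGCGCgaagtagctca
Msh6, chr17:87975054-87975083, plus strand: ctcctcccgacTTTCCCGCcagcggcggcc
Pold1, chr7:44548766-44548795, minus strand: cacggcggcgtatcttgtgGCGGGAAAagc
Pole2, chr12:69228162-69228191, minus strand: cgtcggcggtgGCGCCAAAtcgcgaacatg
In Mcm5 and in the first Mcm6 stretch a pair of matches on opposite strands overlap, and in Mcm3 they lie apart, facing away from each other. The matches of Mcm5 and Mcm6 lie before the gene's start and those of Mcm3, Msh6, Pold1 and Pole2 at or after it. The full 250 bases before the start are given for Mcm5 and Mcm6, the genes among these 6 with matches there.
Mcm5, chr8:75109259-75109508, plus strand: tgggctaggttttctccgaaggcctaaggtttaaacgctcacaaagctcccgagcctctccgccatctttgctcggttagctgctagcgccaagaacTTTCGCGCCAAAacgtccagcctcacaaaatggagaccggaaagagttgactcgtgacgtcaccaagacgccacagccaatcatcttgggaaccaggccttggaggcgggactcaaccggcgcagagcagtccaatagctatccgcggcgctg
Mcm6, chr1:128359706-128359955, minus strand: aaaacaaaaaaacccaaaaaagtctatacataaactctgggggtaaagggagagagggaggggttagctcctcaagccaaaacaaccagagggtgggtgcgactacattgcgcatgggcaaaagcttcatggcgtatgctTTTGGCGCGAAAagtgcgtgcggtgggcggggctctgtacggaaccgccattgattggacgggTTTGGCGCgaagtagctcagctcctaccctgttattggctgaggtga

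Arrays of 1 group correlated with r of 0.984 to 0.993 over the second part of the table, and array medians lay between -0.0721 and -0.0419. No probe carries the symbol of either deleted gene, Ptgs1 or Ptgs2, so the genotypes were not checked against them. Of the fixed marker lists, 7 of 10 markers of progenitors and immature neurons were measured, 2 of 9 of neurons, 3 of 7 of astrocytes, 3 of 8 of microglia and 3 of 5 of endothelium and blood. For the labelled regions themselves, 1 of 6 hippocampus markers and 0 of 8 cortex markers were measured, so these labels could be checked against 1 gene only. That gene, Zbtb20, was below 0 on average in both regions of the COX-2 line, and so was not tested, with a difference of 0.115 ± 0.0381 (SE) for hippocampus minus cortex. Mki67, a gene of dividing cells, had group means of 0.451 to 0.658, and Top2a, which dividing cells use to untangle DNA, of -0.314 to -0.215.

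In the 24 arrays with values for all members, 37 of the 88 genes had a mean Z above 0, the threshold that the study used for background. Among the genes with an Mcm symbol, Mcm4 lay between 2.48 and 2.75, Mcm10 between 1.62 and 1.84, Mcm5 between 1.06 and 1.63, Mcm3 between 1.21 and 1.44, Mcm6 between 0.684 and 0.971 and Mcm9 between 0.210 and 0.547. Mcm2, Mcm7 and Mcm8 stayed below 0 in every array, and Mcm8 had the widest range, -3.72 to -2.35. Cdkn3, a phosphatase that acts on Cdk proteins, lay between 2.39 and 2.60 and Cdk1, the kinase of mitosis, between 1.73 and 2.10. The Cdk inhibitors Cdkn1b and Cdkn1c averaged -0.687 and -0.329 and were below 0 throughout, as were cyclin D3 (Ccnd3, -0.391 to -0.184), Cdk8 (-1.94 to -1.46), Orc1 (-2.08 to -1.37) and the meiotic gene Rad51ap2 (-1.59 to -1.04). Cyclin D2 (Ccnd2), which pairs with Cdk4 and Cdk6, ranged from 0.311 to 0.445. These positions also depend on the probe and are not compared between genes.

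The first question was which members differ when COX-1 is missing from the hippocampus. Pcna, the replication clamp, and the kinase Cdk18 stood higher in COX-1-/- hippocampus, together with Xrcc5, the large subunit of the Ku dimer that binds broken DNA ends, while Pold1, the catalytic subunit of polymerase delta, stood lower. None reached an adjusted p under 0.05 in limma, a linear model with p-values adjusted by Benjamini-Hochberg over all genes above 0, where 0 of 38 tested members were called and 4 of 3431 genes (0.117%). The 4 genes named met the study's rule, a z ratio beyond 1.5 with a normal Z test p under 0.05. The methods word the z ratio as a difference over the SD of the genes on an array, which is 1 for Z scores. Here the difference was divided instead by the SD of such differences over all genes, so the calls hold for that form of the rule. That was 4 of 38 members, with 153 of all genes (4.46%). The 4 include Pold1 and Xrcc5, which passed the background threshold only through the group in which each is higher.

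Pcna had Z scores of 0.520, 0.534 and 0.643 in COX-1-/- hippocampus, against 0.451, 0.292 and 0.332 in COX-1+/+ hippocampus. The groups did not overlap, and the difference was 0.207 ± 0.0465 (SE, n = 3 each; z ratio 1.96, limma adjusted p = 0.0741). Cdk18, a kinase of the PCTAIRE family that is abundant in brain, had 1.90, 1.96 and 1.89 in COX-1-/- hippocampus, against 1.66, 1.63 and 1.78 in COX-1+/+ hippocampus. Every null array lay above every wild-type array, with a difference of 0.227 ± 0.0622 (SE; z ratio 2.14, limma adjusted p = 0.125). Pold1 had -0.0567, -0.0762 and -0.0879 in COX-1-/- hippocampus, against 0.0410, 0.101 and 0.129 in COX-1+/+ hippocampus. Xrcc5 had 0.0515, 0.167 and 0.222 in COX-1-/- hippocampus, against -0.123, -0.105 and 0.0494 in COX-1+/+ hippocampus. For Pold1 the groups lay on either side of 0. For Xrcc5 the lowest null array was just above the highest wild-type array, and both of these arrays were above 0. Each gene passed the background threshold only through the group in which it is higher, so the differences (-0.164 ± 0.0526 for Pold1 and 0.207 ± 0.0840 for Xrcc5) are descriptions.

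At an unadjusted limma p under 0.05 there were 11 of 38 members in this comparison (28.9%), against 16% of all genes. The 11 include Pold1, Xrcc5 and Cdc37, which passed the background threshold only through the group in which each is higher. Genes of that kind were not taken out of either share, so the shares are descriptions. Of the 11 members, 5 were higher in COX-1-/- hippocampus (6.97% of all genes) and 6 lower (9.01% of all genes). Besides the genes above, Mcm10, which helps to start replication forks, had a difference of 0.137, and Xrcc1, the scaffold of single-strand break repair, of 0.0866. On the negative side were Mcm5 (-0.158, and -0.0735 without COX-1+/+ replicate 3), the clamp loader subunit Rfc1 (-0.121), Cdc26 of the anaphase-promoting complex (-0.127), cyclin F (Ccnf, -0.107) and Cdc37 (-0.150). Cdc37 passed the background threshold only through the COX-1+/+ arrays, in which it is higher. Over measured genes, tested or not, the median difference was -0.0627 for 14 Cdc genes, -0.0188 for 88 members and -0.00638 for all genes. The other roles had medians from -0.0380 (clamp, loader and polymerase genes) to 0.0566 (repair genes). Over tested genes only, the median was -0.0866 for 7 Cdc genes, -0.0190 for members and -0.00836 for all genes. Whether the Cdc genes differ as a set from the other genes was not tested. Groups did not overlap in 12 of 38 members (31.6%), Pold1, Xrcc5 and Cdc37 included, against 21.2% of all genes. The call of Pcna was lost without COX-1-/- replicate 3 (z ratio 1.46) and that of Cdk18 under a correction for table position (1.46). Pold1 missed the rule without COX-1+/+ replicate 2 or 3 or COX-1-/- replicate 1 or 3 (z ratios -1.44 to -1.26), and Xrcc5 without COX-1+/+ replicate 1 or 2 or COX-1-/- replicate 2 or 3 (1.46 to 1.9). The Xrcc5 call also ended with the wild types of both lines as control and with the correction for table position. That of Pold1 also ended with median centring.

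**Figure D2:**
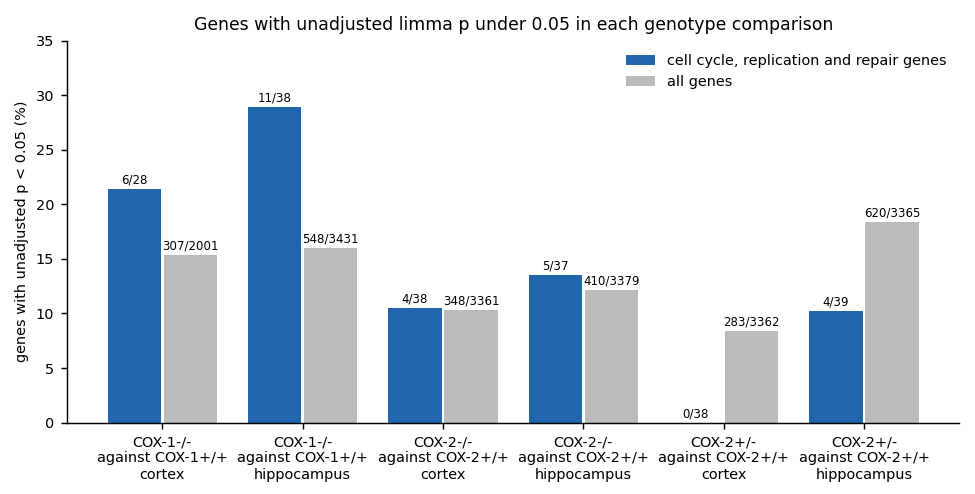
Share of tested genes with an unadjusted limma p under 0.05 (y axis, percent) for each genotype comparison (x axis), members beside all genes, with counts at the bars. COX-1-/- hippocampus has the highest member share, 28.9% against 16% of all genes, and COX-2+/- cortex has 0 of 38. The 28.9% includes Pold1, Xrcc5 and Cdc37, which passed the background threshold only through the group in which each is higher.

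In COX-1-/- cortex, where 28 of the 56 measurable members were tested, Gmnn stood higher. This inhibitor of origin licensing had Z scores of 0.238, 0.254 and 0.246 in COX-1-/- cortex, against -0.0360, 0.0461 and 0.0785 in COX-1+/+ cortex. The null arrays were close together and all above the wild-type arrays, with a difference of 0.216 ± 0.05 (SE, n = 3 each; z ratio 2.19, limma adjusted p = 0.0716). Cdc34, the ubiquitin-conjugating enzyme that serves SCF ligases, had 0.623, 0.667 and 0.827 in COX-1-/- cortex, against 0.481, 0.627 and 0.445 in COX-1+/+ cortex. Its groups overlapped by 1 array each, and the difference was 0.188 ± 0.0569 (z ratio 1.90, limma adjusted p = 0.147).

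Those 2 genes met the study's rule in COX-1-/- cortex, with 79 of 2001 genes in all (3.95%), and limma called 0 members and 1 gene (0.05%). All 6 members at an unadjusted p under 0.05 were positive: beside Gmnn and Cdc34 they were the mismatch repair gene Msh6 (0.136), the polymerase epsilon subunit Pole2 (0.0951), cyclin A2 (Ccna2, 0.134, and 0.0592 without COX-1-/- replicate 3) and Cdk4 (0.0891, and 0.0540 without COX-1-/- replicate 2). That is 21.4% of 28 members against 15.3% of all genes, of which 8.2% were positive and 7.15% negative. Gmnn met the rule without each array in turn, while Cdc34 missed its z ratio or its p without COX-1+/+ replicate 1 or 3 and without COX-1-/- replicate 2 or 3 (z ratios 1.28 to 1.87).

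In COX-2-/- cortex the members that met the study's rule were Pold1, Mcm5 and Cdc5l, which were higher, and Cdk18, which was lower. They made up 4 of 38 members, where 135 of 3361 genes (4.02%) met it, and limma called 0 genes (0%), members included. Mcm5, a helicase subunit, had Z scores of 1.47, 1.58 and 1.63 in COX-2-/- cortex, against 1.34, 1.43 and 1.46 in COX-2+/+ cortex. The lowest null array was just above the highest wild-type array, and the difference was 0.151 ± 0.0623 (SE, n = 3 each; z ratio 1.67, limma adjusted p = 0.458).

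Cdk18 had 1.73, 1.68 and 1.65 in COX-2-/- cortex, against 1.82, 1.82 and 1.86 in COX-2+/+ cortex. Every null array was below every wild-type array, with a difference of -0.148 ± 0.0383 (z ratio -1.63, limma adjusted p = 0.296). Pold1 had 0.109, 0.121 and 0.183 in COX-2-/- cortex, against 0.0321, -0.0864 and -0.199 in COX-2+/+ cortex. Cdc5l, a splicing factor, had 0.0998, 0.121 and 0.180 in COX-2-/- cortex, against -0.0133, 0.00772 and -0.0287 in COX-2+/+ cortex. Both passed the background threshold through the null arrays alone, with differences of 0.223 ± 0.0815 for Pold1 and 0.145 ± 0.0521 for Cdc5l. At an unadjusted p under 0.05 these were the only members, 4 of 38 (10.5%) against 10.4% of all genes. Without COX-2-/- replicate 3, 0 members met the study's rule, and single calls also depended on a COX-2+/+ array: replicate 1 for Mcm5 (z ratio 1.16), replicate 3 for Cdk18 (-1.39), replicates 1 and 3 for Cdc5l (1.43 and 1.41) and replicate 2 for Pold1 (2.26, where the Z test missed its threshold). Mcm5 also missed it without COX-2-/- replicate 2 (1.49), and with the correction for table position Cdc5l had a z ratio of 0.719 and Cdk18 of -1.40. None of the 4 has a probe in the second part of the table, so COX-1 cortex gives no value for them.

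**Figure D3:**
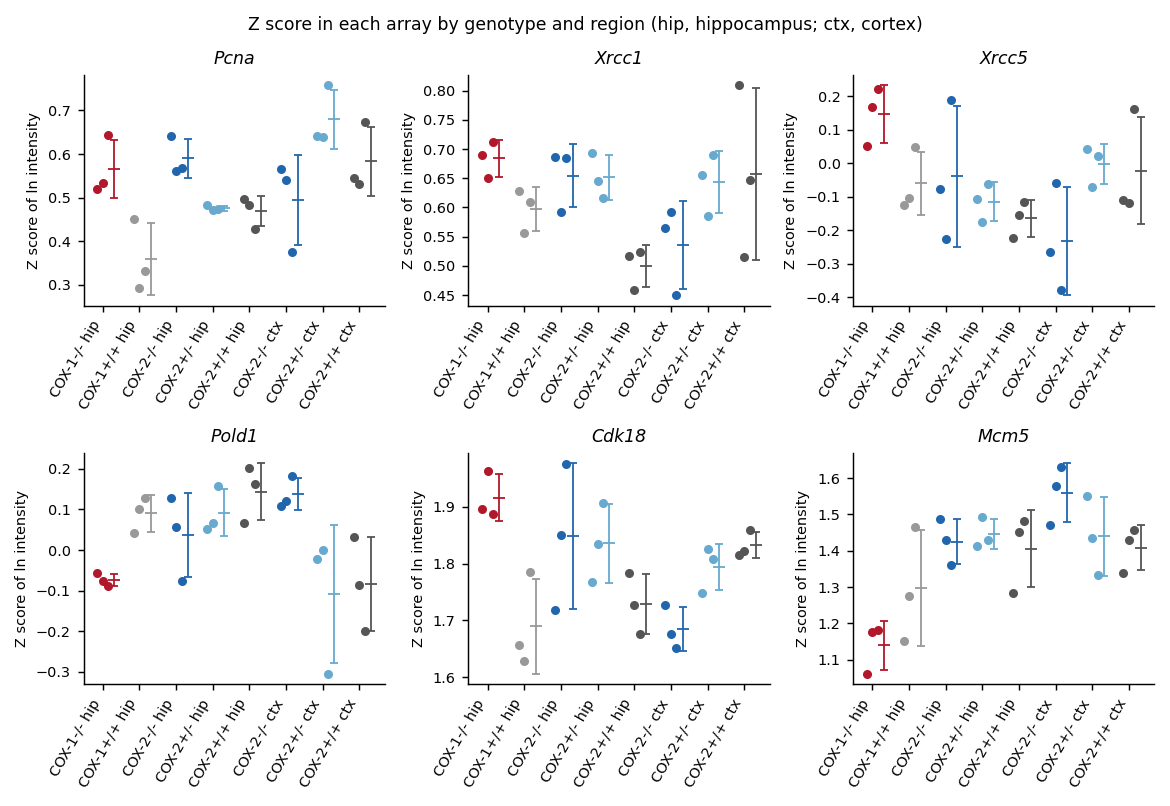
Z score of the natural log intensity (y axis) in each array for 6 members, by genotype and region (x axis), with points for arrays and a bar for the mean and SD of 3 arrays. Pcna is higher in the COX-1-/- than in the COX-1+/+ hippocampus, and Cdk18 in COX-2-/- cortex lies below its wild type.

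In COX-2-/- hippocampus, Xrcc1 was the member that met the study's rule, 1 of 37 tested, with 135 of 3379 genes (4%), and limma called 0 genes (0%). Xrcc1 had Z scores of 0.687, 0.592 and 0.684 in COX-2-/- hippocampus, against 0.517, 0.458 and 0.524 in COX-2+/+ hippocampus. The groups did not overlap, and the difference was 0.154 ± 0.0394 (SE, n = 3 each; z ratio 1.68, limma adjusted p = 0.289). When COX-1+/+ and COX-2+/+ arrays together served as control its z ratio was 0.997, since COX-1+/+ hippocampus had 0.628, 0.556 and 0.609. At an unadjusted p under 0.05 there were also Pcna (0.121) and Pole3 (0.121, and 0.0797 without COX-2-/- replicate 3), an accessory subunit of polymerase epsilon, and on the negative side Cdc34 (-0.0967) and the phosphatase Cdc25c (-0.171). Cdc25c passed the background threshold only through the COX-2+/+ arrays, in which it is higher, and its difference was -0.0756 without COX-2-/- replicate 3. These 5 of 37 members (13.5%) compare with 12.1% of all genes, and Xrcc1 missed the rule without COX-2+/+ replicate 2 (1.36) or COX-2-/- replicate 1 (1.25).

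The COX-2+/- hippocampus shares its wild-type arrays with the COX-2-/- comparison, so values are given side by side. Xrcc1 had 0.692, 0.646 and 0.616 in COX-2+/- hippocampus, above all 3 COX-2+/+ arrays, with a difference of 0.152 ± 0.0394 (SE, n = 3 each; limma adjusted p = 0.0647). Cdc34 had 0.602, 0.515 and 0.566 in COX-2-/- hippocampus and 0.562, 0.539 and 0.538 in COX-2+/- hippocampus, against 0.629, 0.647 and 0.696 in COX-2+/+ hippocampus. Each of these sets lay below the wild-type arrays, and the heterozygous difference was -0.111 ± 0.0347 (limma adjusted p = 0.109). Mcm6, a helicase subunit, had 0.918, 0.888 and 0.887 in COX-2+/- hippocampus, against 0.684, 0.849 and 0.843 in COX-2+/+ hippocampus, with a difference of 0.106 ± 0.0423 (limma adjusted p = 0.202), which was 0.0514 without COX-2+/+ replicate 1. Xrcc6, which forms the Ku dimer with Xrcc5, had a difference of 0.109. Limma called 0 of 39 members here, while it called 60 of 3365 genes (1.78%), and the unadjusted share was 4 of 39 members (10.3%) against 18.4% of all genes. The study's rule took 0 members and 211 genes (6.27%).

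In COX-2+/- cortex, 0 of 38 members passed limma's adjusted or unadjusted threshold or the study's rule, against 0%, 8.42% and 3.21% of all 3362 genes. Member differences ran from -0.111 to 0.0966, with a median of 0.0118 against 0.00438 for all genes. Across genotype comparisons, the share of members whose groups did not overlap was above the share of all genes by the most in COX-1-/- hippocampus, where it includes Pold1, Xrcc5 and Cdc37. The share was 14.3% against 19.3% of all genes in COX-1-/- cortex, 18.4% against 17.5% in COX-2-/- cortex, 16.2% against 16.8% in COX-2-/- hippocampus, 10.5% against 15.8% in COX-2+/- cortex and 23.1% against 32.7% in COX-2+/- hippocampus.

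**Figure D4:**
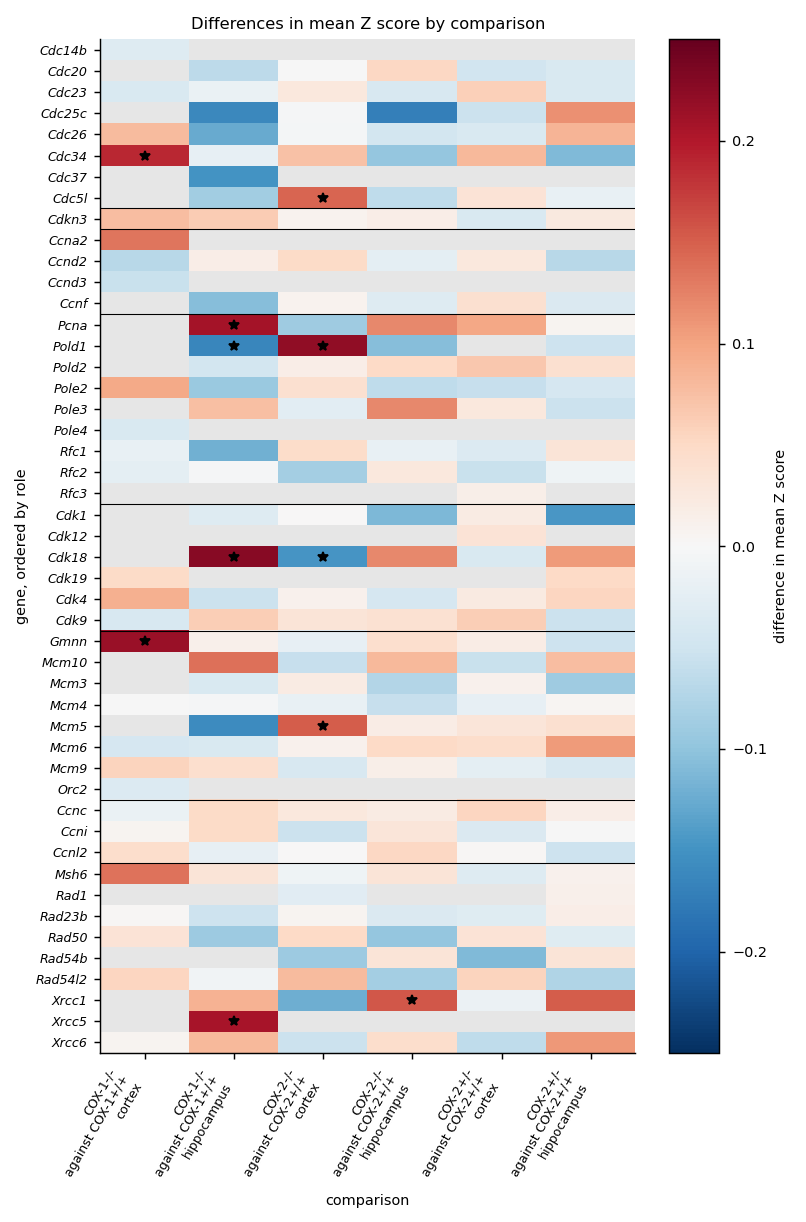
Difference in mean Z score (colour, limited to 0.25 on either side of 0) for the 48 members tested in at least 1 genotype comparison (rows, ordered by role with lines between roles) in the 6 comparisons (columns). Grey marks a gene that was not tested, and the 11 stars mark genes that met the study's rule.

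Some members stood on opposite sides in the regions of COX-2-/- mice. Those below were picked for this after their values were seen. The share of members or of all genes on opposite sides was not counted. Cdk18 differed by 0.119 in COX-2-/- hippocampus and by -0.148 in COX-2-/- cortex, Xrcc1 by 0.154 and -0.122, Pcna by 0.121 and -0.0893, and Pold1 by -0.107 and 0.223, each against COX-2+/+ tissue of the same region. In cortex Pold1 passed the background threshold through the null arrays alone, so its difference there is a description. Leaving out single arrays moved some of these sizes by over 1.5 times but turned no direction. Without COX-2-/- replicate 3 of the region, Pcna differed by -0.0300 and Xrcc1 by -0.0790 in cortex, and Cdk18 by 0.0553 and Pold1 by -0.0513 in hippocampus. Without a COX-2+/+ cortex array, Pcna differed by -0.0442 (replicate 3) and Xrcc1 by -0.0462 (replicate 1). The difference between the regional effects was 0.267 ± 0.0763 for Cdk18 (SE; limma adjusted p = 0.0801), 0.277 ± 0.0844 for Xrcc1 (0.0912), -0.330 ± 0.107 for Pold1 (0.109) and 0.210 ± 0.0729 for Pcna (0.128). None of 37 members passed this test, which 21 of 3368 genes did (0.624%). For COX-2+/- the test took 0 of 39 members and 133 genes (3.95%), and for COX-1-/- 0 of 27 members and 0 genes (0%).

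Between the lines, the effect of COX-2-/- minus that of COX-1-/- in cortex was -0.237 ± 0.0706 for Gmnn (SE; limma adjusted p = 0.229). No member of 28 in cortex or 38 in hippocampus passed, and no gene did (0% in both), while at an unadjusted p under 0.05 there were 6 members in cortex (21.4%, against 11.4% of all genes) and 0 in hippocampus (6.76% of all genes). Pcna was higher than its own wild type by 0.207 in COX-1-/- hippocampus and by 0.121 in COX-2-/- hippocampus, in sets that share no arrays, and by 0.00640 in COX-2+/- hippocampus.

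The next question was which members differ between regions. In the COX-2 line, 9 hippocampus arrays against 9 cortex arrays, 5 of 38 members changed (13.2%), where 406 of 3366 genes did (12.1%). Mcm3, Ccnc, Pole2 and Msh6 were higher in hippocampus and Pole3 was lower. The helicase subunit Mcm3 had a lowest, median and highest Z of 1.29, 1.40 and 1.44 in hippocampus, against 1.21, 1.24 and 1.30 in cortex. Only the lowest hippocampus array lay under the highest cortex array, and the difference was 0.125 ± 0.0222 (SE; limma adjusted p = 0.00241).

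Ccnc, the cyclin of the Mediator kinase, had 0.0663, 0.111 and 0.133 in hippocampus, against -0.0277, 0.0315 and 0.0633 in cortex, without overlap (0.0878 ± 0.0174, limma adjusted p = 0.00441). Such separation occurred in 1 of 38 members and in 0.772% of all genes. Of its 3 probes, 2 passed on their own, with differences of 0.147 and 0.126, and the third had -0.00998. Pole3 had 0.386, 0.523 and 0.710 in hippocampus, against 0.609, 0.651 and 0.767 in cortex (-0.128 ± 0.0287, limma adjusted p = 0.00951). Its hippocampus arrays of COX-2+/- and COX-2+/+ mice were below every cortex array, while 2 of 3 COX-2-/- hippocampus arrays lay within the cortex range.

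Pole2, the second subunit of polymerase epsilon, had 0.138, 0.218 and 0.270 in hippocampus, against 0.0515, 0.121 and 0.230 in cortex (0.0833 ± 0.0203, limma adjusted p = 0.0154). Msh6, which detects mismatched bases, had 0.845, 0.881 and 0.927 in hippocampus, against 0.702, 0.816 and 0.871 in cortex (0.0805 ± 0.0242, limma adjusted p = 0.0396), and kept its call in 7 of 24 alternatives. Of the tested members, 3 of 8 with an E2F match (Mcm3, Pole2 and Msh6) and 2 of 20 whose promoter has none were called in the COX-2 line. In the COX-1 line, described next, the counts ran the other way, 0 of 5 with a match and 5 of 14 without. Among the markers, the astrocyte gene Aldoc was higher in hippocampus by 0.145 (limma adjusted p = 0.00863), and Stmn1, of immature neurons, lower (-0.168, limma adjusted p = 0.000743). Those were 1 of 3 measured astrocyte markers and 1 of 7 measured progenitor markers, 0 of the other lists were called, and their part in these results was not tested. Slc1a3, Nes, Sox11, Eomes, Top2a, C1qa, Cdh5 and Zbtb20 averaged below 0, so they were not tested and could not be called. Over the 7 progenitor markers, array means ran from 0.0711 to 0.147 in hippocampus, against 0.0940 to 0.206 in cortex.

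In the COX-1 line, with 6 arrays of each region and the second part of the table only, 6 of 27 members changed (22.2%), where 675 of 2024 genes did (33.3%). Ccnc, here measured by 1 of its 3 probes, was again higher in hippocampus. Its lowest, median and highest Z were 0.241, 0.293 and 0.340, against 0.0508, 0.0807 and 0.105 in cortex. The regions kept well apart (0.211 ± 0.0238, SE; limma adjusted p = 0.00011), and these arrays share no mice with the COX-2 line. Orc2, a subunit of the origin recognition complex, had 0.946, 1.06 and 1.17 in hippocampus, against 1.20, 1.29 and 1.35 in cortex, also without overlap (-0.213 ± 0.0354, limma adjusted p = 0.000798). Separation of this kind was seen in 3 of 27 members and in 13.9% of all genes. In the COX-2 line the same Ccnc probe overlapped between regions, with hippocampus arrays down to 0.191 and cortex arrays up to 0.284. The same Orc2 probe differed by 0.0333 ± 0.0257 in the COX-2 line (limma adjusted p = 0.430).

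The remaining calls in the COX-1 line were a higher cyclin L2 (Ccnl2, which acts in splicing; 0.0954, limma adjusted p = 0.0181) and lower Gmnn (-0.113, 0.0184), Cdc14b, a phosphatase (-0.124, 0.0258), and Cdc26 (-0.125, 0.0263). Leaving out single arrays ended the calls of Cdc26 (6 of 12 arrays, adjusted p up to 0.0696), Cdc14b (4 of 12, up to 0.0566) and Ccnl2 (COX-1-/- cortex replicate 2, 0.0523). The correction for table position ended the calls of Gmnn (-0.0694, adjusted p = 0.0963) and Ccnl2 (0.0555, adjusted p = 0.0897). Gmnn differed in the same direction in the COX-2 line (-0.0719, limma adjusted p = 0.0926), and its COX-1 cortex values are the ones in which null and wild-type arrays stood apart. Pole2 and Msh6 differed by 0.0679 and 0.00128 in the COX-1 line (limma adjusted p = 0.157 and 0.982), and Mcm3 and Pole3 have no usable probe there.

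**Figure D5:**
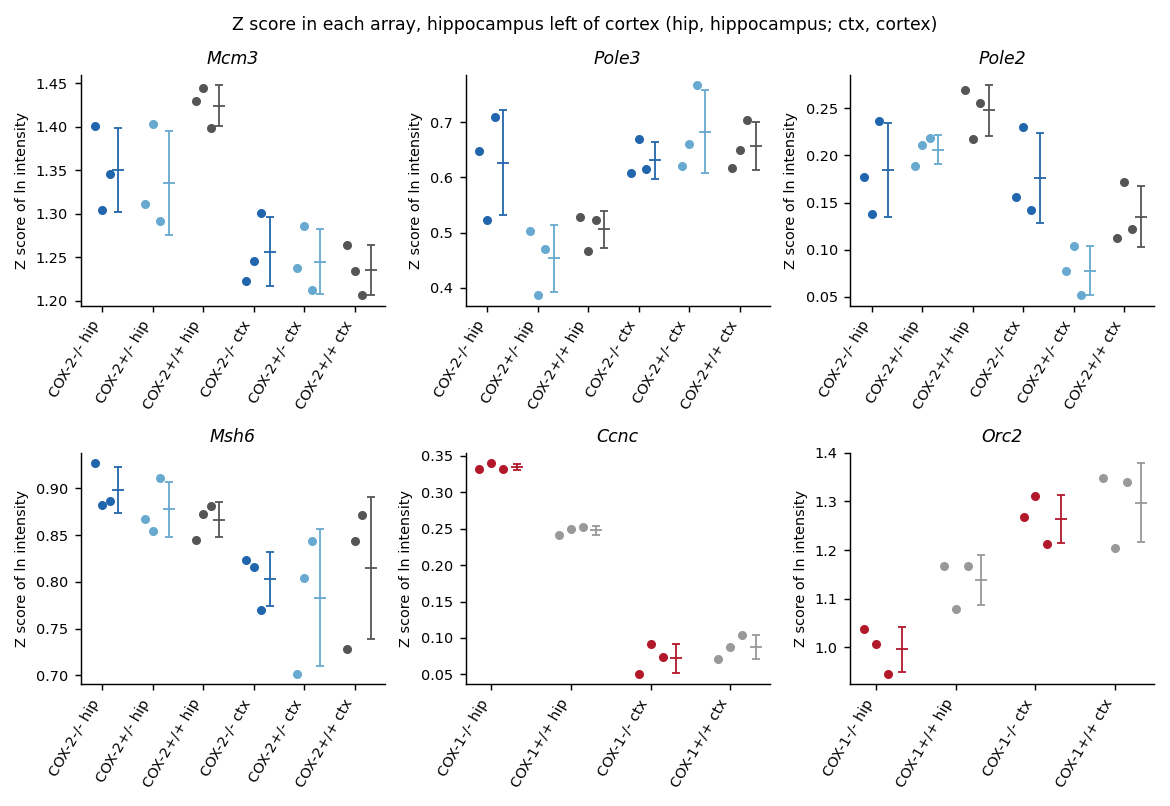
Z score of the natural log intensity (y axis) in each array by genotype and region (x axis), hippocampus left of cortex, with a bar for the mean and SD of 3 arrays; Mcm3, Pole3, Pole2 and Msh6 in the COX-2 line, and the second-part probes of Ccnc and Orc2 in the COX-1 line. Ccnc lies at 0.241 or above in all 6 hippocampus arrays and at 0.105 or below in all 6 cortex arrays.

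Between the wild-type mice, Mcm6 was the member called in hippocampus, 1 of 38, where 235 of 3412 genes were (6.89%). It had 0.684, 0.849 and 0.843 in COX-2+/+ hippocampus, against 0.971, 0.914 and 0.967 in COX-1+/+ hippocampus. The lines did not overlap, the first COX-2+/+ array being well below the others, and the difference was -0.159 ± 0.0423 (SE, n = 3 each; limma adjusted p = 0.0370). Without any 1 of the 6 arrays the adjusted p was 0.0516 to 0.119, and with a correction for table position the difference was -0.0633 (limma adjusted p = 0.348). In cortex 0 of 27 members were called, and 61 of 2004 genes (3.04%).

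A wider list of 87 measured genes of the same pathways, named from textbook roles, was also compared between genotypes. Limma called 1 of 38 in COX-2+/- hippocampus, where it called 1.78% of all genes. It called 0 in the other 5 genotype comparisons, against 0% to 0.117% of all genes. The called gene was Polb, the polymerase of base excision repair, with 1.60, 1.69 and 1.76 in COX-2+/- hippocampus, against 1.38, 1.38 and 1.43 in COX-2+/+ hippocampus. Its groups were far apart (0.291 ± 0.0628, SE; limma adjusted p = 0.0325, z ratio 2.69). Xrcc1, its partner in that pathway, was the member with the smallest adjusted p in the same comparison. Xrcc1 passed neither limma's threshold nor the study's rule there, and a link between the genes was not tested. COX-2-/- hippocampus had Polb values of 1.43, 1.53 and 1.73.

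The study's rule took 9 results from this list in 204 tests over the 6 genotype comparisons (4.41%), where it took 3.21% to 6.27% of all genes. In COX-1-/- hippocampus these were Timeless, a fork protection gene (z ratio 1.53), and Tfdp1, the partner of E2F factors (-1.59). In COX-2-/- cortex they were the ubiquitin ligase subunit Skp1 (2.78), the mitotic kinase Aurka (2.11, above 0 on average in the null arrays alone) and the repressor E2f7 (-1.79), and in COX-2-/- hippocampus the condensin gene Smc2 (1.56). In COX-2+/- cortex they were Anapc7 of the anaphase-promoting complex (2.68) and the Cdk-binding protein Cks2 (2.56), and in COX-2+/- hippocampus Polb. The paper itself lists Timeless as higher in both COX-1-/- and COX-2-/- hippocampus. Here the rule was applied to the mean of a gene's probes, and Timeless did not meet it in COX-2-/- hippocampus. The source of that discrepancy was not tested. Between regions, limma called 3 of 37 list genes in the COX-2 line (12.1% of all genes), the single-strand binding subunit Rpa1 higher by 0.128, the mitochondrial polymerase Polg higher by 0.0714 and the mismatch repair gene Mlh3 lower (-0.110). In the COX-1 line it called 7 of 16 (33.3% of all genes), with Smc4 higher and Bub1b, Rbl1, Rpa2, Smc3, Tfdp1 and Timeless lower.

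Probes of 1 gene did not always move together, and the gene mean hides this. Of the 88 genes, 27 have more than 1 probe, and the mean Z of probes of 1 gene spanned 3.61 for Cdc14b, 3.12 for Rad50, 3.0 for Ccnd2 and 2.46 for Ccnh. Ccnd2 had 6 probes. One of them was called by limma on its own in COX-2+/- hippocampus, with a difference of -0.247 ± 0.0606 (SE, n = 3 each; limma adjusted p = 0.0427), while the other probes of Ccnd2 gave -0.114 to 0.0430 and the gene mean -0.0688. Rad50, of the complex that binds double-strand breaks, had 1 of 3 probes that met the study's rule in COX-1-/- hippocampus (z ratio -1.64), with -0.577 and -0.139 at the others.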

How the data were processed

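The authors reverse transcribed total RNA with radiolabelled dCTP, hybridised nylon cDNA membranes, read spot intensities with ArrayPro and deposited Z scores of the natural log intensity, which are the score values used here. Aligner and genome build do not apply to these arrays. Values of the probes of a gene with 1 symbol were averaged. Members and lists were chosen with earlier results of these data known. Groups were compared with limma 3.58.1 in R 4.3.3, as group means over the 15 arrays of a region (9 COX-2 arrays for COX-2 cortex, 18 or 12 for regions), with Benjamini-Hochberg adjustment over genes with a mean Z above 0, and by the study's z ratio rule. With 3 arrays a group an exact permutation test cannot go below p = 0.1, and p-values measure the spread between arrays. No sequencing depth applies, and the number of arrays limits the precision. Copied COX-1 cortex values were left out. The labels name no batch. Named genes were all members called, the 4 highest and 4 lowest mean Z, Gmnn, Pcna, the Ccnd, Cdkn1 and Mcm genes and the 4 with the widest probe ranges. In region and line comparisons, named calls were limited to the 8 with the smallest p. Both tests were run on simulated data with independent normal errors, without effects of table position or replicate number. A limit on false calls was set there for limma only, so the simulation does not vouch for the false calls of the study's rule. Alternatives were median centring, quantile normalization, other filters, probes, a stricter z ratio, both wild types as control, a replicate block and leaving out each array. The correction by a running median over 201 rows, the tests of regional effects and the differences without 1 array were added after the data were seen. Figures used Python 3.11.15 and matplotlib 3.10.9.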

Additional observations from a re-analysis of the deposited data

Results flagged for a closer look

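Polb, the polymerase of base excision repair, was marked because its COX-2+/- effect differed between the regions in a test of that difference. The effect in hippocampus minus that in cortex was 0.361 ± 0.0827 (SE; limma adjusted p = 0.0232). Polb had 1.60, 1.69 and 1.76 in COX-2+/- hippocampus, against 1.38, 1.38 and 1.43 in COX-2+/+ hippocampus, and 1.5, 1.49 and 1.55 in COX-2+/- cortex, against 1.54, 1.57 and 1.63 in COX-2+/+ cortex. Polb is in the wider list and not among the 88 members, and it was singled out after its values were seen.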

How the results depend on the processing

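Over 379 alternatives to 23 calls of single genes, 286 kept the call, 93 lost it and 0 changed sign. Mcm3 and Pole3 (24 of 24) and Orc2 (18 of 18) kept theirs under every alternative tried, Msh6 in 7 of 24 and Mcm6 in 3 of 12. Counts of called members are given without a cause, since the cause was not tested. The number of genes tested changes with the filter, and the shares of all genes are not given beside any count in this section. A larger or smaller count is therefore not read as a trait of the members. Limma in COX-2+/- hippocampus called 1 member by probe (Ccnd2) and 1 with a replicate block (Xrcc1). Between regions it called 8 (COX-2 line) and 14 (COX-1 line) without the filter, and 3 in each line at a mean Z above 0.5. Between wild-type hippocampi it called 0 with median centring, a mean Z above 0.5, probes or the table position correction, and 10 without the filter.

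For the study's rule, COX-1-/- cortex had 1 at a mean Z above 0.5, 1 at a z ratio beyond 2 and 1 with the position correction, and COX-1-/- hippocampus 7 without the filter, 1 above 0.5 and 1 beyond 2. COX-2-/- cortex had 2 above 0.5, 1 by probe, 1 beyond 2, 0 with both wild types and 2 with the position correction. COX-2-/- hippocampus had 2 with median centring, 6 without the filter, 0 beyond 2, 2 with both wild types and 0 with the position correction. COX-2+/- cortex had 2 without the filter, and COX-2+/- hippocampus 1 without it and 1 by probe.

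Leaving out 1 array at a time gave 4 to 6 members for regions in the COX-2 line, 4 to 7 in the COX-1 line, and 0 to 0 between wild-type hippocampi and in the genotype and line comparisons by limma. By the study's rule the ranges were 1 to 3 in COX-1-/- cortex, 1 to 4 in COX-1-/- hippocampus, 0 to 4 in COX-2-/- cortex, 0 to 3 in COX-2-/- hippocampus and 0 to 1 in each COX-2+/- region. Hippocampus arrays with the same replicate number correlated in their deviations by -0.0429 to 0.229, with 9 of 30 pairs over 0.1. Their mean was 0.0656, against -0.0328 for other pairs. In cortex, over the second part of the table, the range was -0.136 to 0.177, again with 9 of 30 pairs over 0.1. The mean there was 0.0532, against -0.0266 for other pairs. Not every pair was over 0.1 and no label ties the numbers to a mouse or batch, so they were not used as pairs. With the replicate block, Xrcc1 in COX-2+/- hippocampus had a limma adjusted p of 0.0348, and no other count moved by more than 1.5 times.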
